A study of Mus musculus with 8 samples.

Results

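The cervical loop head (CLH) is the tissue at the growing end of the mouse incisor that holds the dental epithelial stem cells (DE-SCs). Its transcriptome was compared between *Med1* cKO and Ctrl mice in 4 RNA-seq libraries, 2 for each genotype. The genes compared were those with an RPKM (reads per kilobase of a gene, divided by the library's size) of at least 1 in 2 or more of these libraries and with a gene length above 200 bases. This left 12806 of the 23358 genes in the table. The other 10552 genes were not tested, and 4368 genes were at 0 in all 4 CLH libraries. Just inside the limit lay *Snai3*, with an RPKM of 0.914 and 0.328 in Ctrl and 1.29 and 1.001 in cKO. Just outside lay *Fam131b*, with 0.999 and 1.07 in Ctrl and 0.917 and 0.800 in cKO.

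All mice were 4 weeks old and of the C57BL/6 strain. In the cKO mice, which carried *Med1* fl/fl alleles, Cre recombinase driven by the *Krt14* promoter removed *Med1* exons 8 to 10 from *Krt14*-expressing epithelial cells, and Cre-negative littermates served as Ctrl. Cells that do not express *Krt14*, such as pulp, bone and vessel cells, keep the gene. Tissues of several mice from 2 litters were pooled, sexes were not separated, and the series also holds 4 libraries of the cervical loop tail (CLT), the tissue of the stem cell progenies.

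The mouse incisor grows throughout life. Stem cells in the cervical loop give rise to transit amplifying cells, which become the cells of the stratum intermedium and the ameloblasts that secrete enamel matrix. Signals exchanged with the neighbouring mesenchyme through the FGF, BMP, Wnt, hedgehog and Notch pathways hold this niche in balance. MED1 is a subunit of Mediator, the complex that links transcription factors bound at enhancers to RNA polymerase II. The comparison asks what the stem cell tissue expresses and which of its genes differ in level when *Med1* is deleted from the epithelium.

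Each CLH library held 26877439 to 34420181 reads, of which 83.1% to 84.1% lay on genes of the table. Replicates were close, with a median absolute log2 difference of 0.0918 between the Ctrl CLH libraries and 0.115 between the cKO CLH libraries, against 0.379 in Ctrl CLT. A difference above 1.5-fold between replicates was seen for 0.531% of genes in Ctrl CLH and 0.476% in cKO CLH. One Ctrl library stood apart in a small set of genes. Library Ctrl CLH 2 nearly lacked the oral mucosa keratins *Krt13* and *Krt4*, which the other 3 libraries held. It and cKO CLH 1 carried much of many of the differences, and values that moved by over 1.5 times without either are mostly given without it too. *Med1* (chromosome 11, 98152155 to 98193293, mm10) had an RPKM of 7.71 in Ctrl 1, 9.12 in Ctrl 2, 7.10 in cKO 1 and 7.03 in cKO 2. Its log2 fold change was -0.22 (SE 0.11), with an adjusted p of 0.58 by limma, and -0.11 without Ctrl CLH 2. In CLT the 4 values were 4.83, 8.71, 9.15 and 8.96 in the same order. The level over the whole gene was therefore not lower in both regions, the table has no values per exon, so cKO and Ctrl stand below for what the labels of the libraries say.

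The most abundant transcripts of CLH were those of enamel matrix, translation and bone matrix. *Amelx*, which encodes amelogenin, the main protein of enamel matrix, ranked first with an RPKM of 10173 and 9794 in Ctrl and 9733 and 11044 in cKO. The groups overlapped, and the log2 fold change was 0.05 (SE 0.22, 95% interval -0.42 to 0.53). *Amelx* alone made up 2.69% to 2.92% of the summed RPKM of a library and 1.12% to 1.27% of its reads on genes. *Ambn*, which encodes the matrix protein ameloblastin, had 2821 and 2334 in Ctrl and 3309 and 2831 in cKO, so both cKO values lay above both Ctrl values by little (0.25, and 0.12 without Ctrl CLH 2). The other genes among the 12 highest were *Eef1a1*, *Tpt1*, *Col1a1* and 7 ribosomal protein genes (*Rpl41*, *Rps4x*, *Rps14*, *Rpl23a*, *Rps3a*, *Rpl7* and *Rps15*). The 12 together took 8.44% to 9.03% of the summed RPKM in each library. In all, 487 genes had a mean RPKM of at least 100 and 40 of at least 1000. Reads of ribosomal protein genes can be shared with their pseudogene copies, so their levels are uncertain.

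The markers of the labelled tissue were present in all 4 libraries. All 8 dental epithelium markers were tested, at RPKM values from 11.4 to 317. *Krt5*, a basal keratin, had 278 and 278 in Ctrl and 268 and 317 in cKO. *Trp63*, the master regulator of stratified epithelia, had 22.4 and 24.6 in Ctrl and 22.7 and 21.2 in cKO. Neither gene separated the groups. Of the 8 stem cell region markers 7 were tested. *Gli1*, a target and effector of hedgehog signalling that marks the stem cells, had 68.8 and 69.2 in Ctrl and 70.5 and 78.6 in cKO. *Cd24a*, a surface glycoprotein of epithelial cells, had 388 and 403 in Ctrl and 419 and 365 in cKO. *Sox2*, the transcription factor of the labial stem cells, was low, with 1.37 and 1.45 in Ctrl and 1.73 and 1.502 in cKO. The marker not tested was *Lgr5*, at an RPKM of 0.0987 to 0.233. All 4 secretory enamel markers (48.7 to 11044) and all 5 odontoblast and bone markers (46.3 to 1865) were tested as well. The tissue thus held dental mesenchyme beside epithelium, and bulk RNA cannot tell fewer cells of a type from less RNA per cell.

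**Figure D1:**
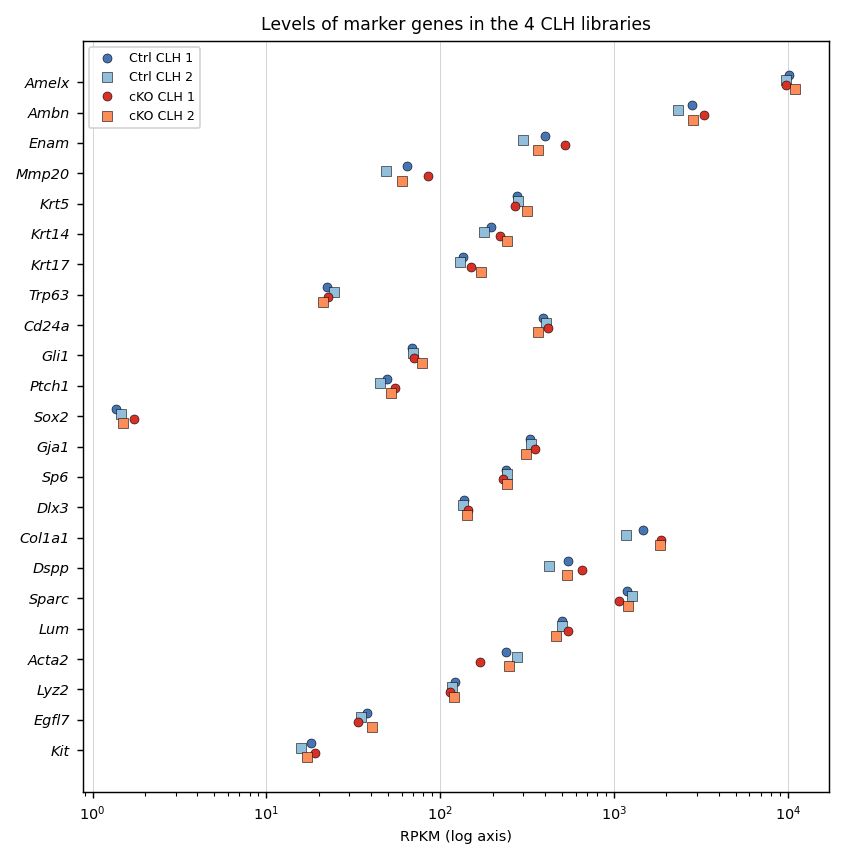
RPKM (log axis) of marker genes in each of the 4 CLH libraries, blue for Ctrl and red for cKO, circles for replicate 1 and squares for replicate 2. Each gene's 4 points lie close together relative to the distance between genes, from *Sox2* at 1.37 to 1.73 up to *Amelx* at 9733 to 11044.

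Genes of other cell types were also measured. *Lum*, a mesenchymal proteoglycan, had an RPKM of 461 to 539, *Lyz2* of macrophages 113 to 121 and *Egfl7* of endothelium 33.5 to 40.4. For these genes the Ctrl and cKO values overlapped. The level of *Lum* exceeded that of every dental epithelium marker above. The leukocyte list had 1 of 20 tested genes with an unadjusted p under 0.05 in each direction, and the endothelial list 1 of 16 higher and 0 lower. Of all genes tested, 6.25% were higher and 2.92% lower at such a p. The skeletal muscle list (11 genes) and the erythroid list (4 genes) had none in either direction. The melanocyte list (5 genes) had none either, with *Dct* at 1.39 to 1.94. The melanocyte markers *Mlana*, *Pmel* and *Tyr*, the muscle gene *Myh4*, the fat cell genes *Adipoq* and *Plin1*, and *Sox10* of Schwann cells fell below the limit and were not tested, with no RPKM above 0.836.

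No gene of the 12806 passed an adjusted p of 0.05 between cKO and Ctrl in CLH (0.0% called; limma on log2(RPKM + 1), 2 against 2 libraries, Benjamini-Hochberg adjustment). The smallest adjusted p was 0.17, for *Avpi1* and *Ccdc74a*. At an unadjusted p under 0.05, 801 genes were higher in cKO (6.25%) and 374 lower (2.92%), or 1175 in all, where 640 would be called if no gene had changed. A voom model of the reads recovered from the RPKM called 26 genes at an adjusted p of 0.05, 25 higher and 1 lower. With 2 libraries a side, the smallest p an exact permutation test can reach is 0.333. The p-values measure the spread between libraries of pooled tissues. As no gene passed, differences are described by their values, and none is called changed.

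The transcriptome of CLH lay within narrow bounds. For 12776 genes (99.8%) the 95% confidence interval of the fold change lay within 2-fold in either direction, and for 11716 genes (91.5%) within 0.5 on the log2 scale. The median log2 fold change over all genes was -0.01, and the 5th and 95th percentiles were -0.20 and 0.25. Single genes ranged from -0.85 (*Amtn*) to 2.76 (*Krt13*). Above 1 were 10 genes, and below -1 there were 0. Above 0.5 were 62 genes, of which 52 had both cKO libraries above both Ctrl libraries, and below -0.5 were 18 genes, of which 16 had both below. Over all genes, 2573 (20.1%) had both cKO libraries above both Ctrl libraries and 2465 (19.2%) had both below. Fold changes on the log2(RPKM + 1) scale understate the change of low genes.

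**Figure D2:**
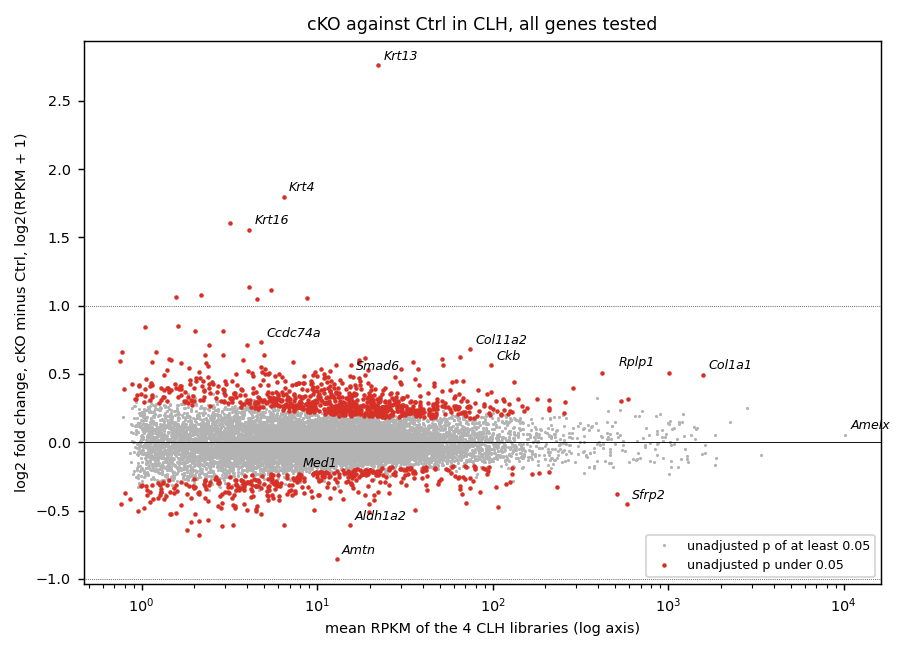
Log2 fold change (cKO minus Ctrl, on log2(RPKM + 1)) of every gene tested in CLH against the mean RPKM of the 4 libraries (log axis), with genes of unadjusted p under 0.05 in red and dotted lines at 1 and -1. Most genes lie close to 0, and the 10 above 1 have low to moderate levels, led by *Krt13* at 2.76.

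The small differences were not spread evenly over the libraries. Among the 801 genes with the higher cKO values, Ctrl CLH 2 was the lowest library in 705 (88.0%), against 28.3% over all genes tested. Among the 374 with the lower cKO values, Ctrl CLH 2 was the highest in 292 (78.1%), against 31.9% over all genes, and cKO CLH 1 the lowest in 268 (71.7%), against 27.7%. Without Ctrl CLH 2, an unadjusted p under 0.05 was reached by 257 genes higher and 122 lower in cKO. These shares describe how the genes were called and are no test. Short genes were called more often. Of the 2565 shortest genes (275 to 1602 bases) 10.8% were higher and 4.95% lower, and of the 2561 longest (4774 to 23495 bases) 3.79% and 0.859%. The part of gene length in the differences was not tested.

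Stable genes were found among basic cellular functions. The 8 genes with the smallest range over the 4 libraries, among those with a mean RPKM of at least 50, were *Ganab*, *Atp5f1*, *Atp5a1*, *Anapc5*, *Tpm3*, *Dnajc8*, *Ctnna1* and *Tsc22d1*. *Ganab*, a glucosidase that trims glycans in the endoplasmic reticulum, had 84.3 and 85.1 in Ctrl and 84.3 and 84.1 in cKO. *Anapc5*, a subunit of the anaphase-promoting complex, had 125 and 126 in Ctrl and 125 and 127 in cKO. For both genes the 95% interval of the log2 fold change reached no further than 0.18 in either direction. Some lists were narrow throughout, within wider bounds. All 40 proliferation genes, all 40 respiratory chain genes and all 31 proteasome genes tested had intervals within 0.5 on the log2 scale. Of the proliferation genes, *Mki67* had 23.1 and 25.0 in Ctrl and 22.7 and 23.6 in cKO, and *Pcna*, the DNA polymerase clamp, 100.5 and 102 in Ctrl and 99.6 and 96.1 in cKO. The proliferation list had a median of -0.05, with 12 genes higher and 28 lower. An unadjusted p under 0.05 was reached by 1 gene (*Ccne1*, 0.26), which was higher, against 6.25% of all genes.

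The transcription factors of the enamel lineage had similar levels in both genotypes. Of 24 tested, 12 were higher and 12 lower, the median log2 fold change was -0.01, and the intervals of 22 lay within 0.5 on the log2 scale. *Sp6*, needed for ameloblast differentiation, had 238 and 241 in Ctrl and 229 and 243 in cKO. *Dlx3* had 137 and 135 in Ctrl and 144 and 142 in cKO, and *Msx2* 91.4 and 95.9 in Ctrl and 93.4 and 90.01 in cKO. The members with an unadjusted p under 0.05 were *Msx1*, with 9.73 and 8.38 in Ctrl and 14.2 and 11.7 in cKO, and *Runx2*, with 18.2 and 22.3 in Ctrl and 16.8 and 17.2 in cKO. Their log2 fold changes were 0.47 (SE 0.11) and -0.24 (SE 0.10), and *Runx2* stood at -0.09 without Ctrl CLH 2. The epidermal transcription factors, of which 24 were tested, had a median of 0.04. Here, as in the enamel list, 1 member in each direction had an unadjusted p under 0.05, against 6.25% and 2.92% of all genes. The epidermal members were *Foxo3* (0.45) and *Prdm1* (-0.28). These were 0.28 and -0.16 without Ctrl CLH 2.

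Mediator subunits were level as a group. The 33 genes tested had a median of 0.00, 18 higher and 15 lower, and 31 had intervals within 0.5 on the log2 scale. *Med25*, a subunit that binds transcriptional activators, had 13.9 and 12.5 in Ctrl and 17.0 and 17.6 in cKO (0.36, SE 0.09). *Med16* and *Med24*, both of the tail module, were also higher in both cKO libraries (0.28 and 0.24), and *Med6* of the head module was lower in both (-0.24). These 4 were the members with an unadjusted p under 0.05, 3 higher and 1 lower, where 6.25% and 2.92% of all genes were called. Among 41 enhancer cofactors the median was -0.01, with 19 higher and 22 lower, and 39 had intervals within 0.5 on the log2 scale.

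Most listed genes of the basal epithelium and its anchorage were higher in cKO by small amounts. In the dental epithelium list 14 of 16 genes were higher, the median log2 fold change was 0.13 against -0.01 over all genes, and 7 had an unadjusted p under 0.05, all higher, against 6.25% of all genes. *Krt14*, the basal keratin whose promoter drives Cre, had 196 and 178 in Ctrl and 220.3 and 242 in cKO (0.31, SE 0.09). *Krt17* had 135 and 130.4 in Ctrl and 149.8 and 171 in cKO. For both keratins the groups did not overlap. *Krt5* stood at 0.07 with overlapping groups, and at -0.05 without cKO CLH 2. The 2 lower genes of the list were *Trp63* (-0.09) and *Epcam* (-0.16). *Lamb3*, which encodes a laminin chain of the epithelial basement membrane, had 49.3 and 35.1 in Ctrl and 64.6 and 59.3 in cKO (0.56, SE 0.13). Ctrl CLH 2 was the lowest library, and without it the value was 0.32. *Itgb4*, the integrin of hemidesmosomes, had 26.7 and 25.4 in Ctrl and 30.8 and 32.4 in cKO, and the hemidesmosomal collagen *Col17a1* had 61.2 and 54.7 in Ctrl and 70.1 and 68.5 in cKO. The list's median was 0.13 without Ctrl CLH 2. Over the oral mucosa genes the same libraries summed to 40.0 and 3.73 in Ctrl and 72.0 and 43.4 in cKO, and their part in these values was not tested.

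Adhesion genes, of which several also stand in the list above, had 26 of 34 members higher, with a median of 0.10. An unadjusted p under 0.05 was reached by 9 members, all higher, where 6.25% of all genes were called higher. *Pkp3*, a desmosomal plaque protein, had 10.4 and 8.66 in Ctrl and 13.8 and 13.6 in cKO (0.48, SE 0.10). *Jup*, the plakoglobin of desmosomes, had 14.5 and 13.9 in Ctrl and 16.5 and 17.1 in cKO, and *Cdh1*, the E-cadherin of adherens junctions, had 56.0 and 54.9 in Ctrl and 57.5 and 54.7 in cKO. The adhesion median was 0.06 without Ctrl CLH 2 and 0.01 without cKO CLH 1. *Epcam*, an epithelial surface protein, lay the other way, with 35.5 and 37.4 in Ctrl and 32.2 and 32.7 in cKO (-0.16, SE 0.08).

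The largest differences were those of oral mucosa and stratified epithelium genes, and they turned on library Ctrl CLH 2. *Krt13*, a keratin of non-cornified oral epithelium, had an RPKM of 21.8 and 0.0566 in Ctrl and 42.5 and 24.4 in cKO, or 988 and 2 reads against 1885 and 949. Its log2 fold change was 2.76 (SE 0.90, adjusted p = 0.33, limma) and 0.54 without Ctrl CLH 2. *Krt4*, its partner keratin, had 6.07 and 0.262 in Ctrl and 12.3 and 7.11 in cKO, and *Krt16*, a keratin of stressed and suprabasal cells, 4.25 and 0.0713 in Ctrl and 6.82 and 5.23 in cKO. Their log2 fold changes were 1.80 and 1.56, and 0.55 and 0.41 without that library. On the log2(RPKM + 1) scale, Ctrl CLH 1 lay far nearer to the cKO libraries than to Ctrl CLH 2 in each of these genes. The highest library in each was cKO CLH 1. The 10 genes above 1 on the log2 scale were *Krt13*, *Krt4*, *1700066N21Rik*, *Krt16*, *Krtdap*, *Krt6a*, *Krt6b*, *Mt4*, *Nrn1l* and *AI506816*, and Ctrl CLH 2 was the lowest library in all 10. *Krt6a* and *Krt6b* are near-identical copies, so the split of their reads is uncertain.

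Of the 15 oral epithelium genes 6 were tested. The 14 with values, tested or not, made up 40.0, 3.73, 72.0 and 43.4 RPKM in Ctrl 1, Ctrl 2, cKO 1 and cKO 2. The 6 tested genes had a median log2 fold change of 0.98. At an unadjusted p under 0.05 were 5 of the 6, all higher, against 6.25% of all genes. The median was 0.21 without Ctrl CLH 2 and 1.76 without Ctrl CLH 1. With no filter on low values the list's median was 0.08. The 3 defining markers *Krt4*, *Krt13* and *Krt76* summed to 29.3, 0.463, 56.5 and 33.1 in the same order. How much oral mucosa the dissected tissues held, and its part in the results, was not tested.

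Epidermal differentiation genes lay the same way. Of the 49 listed, 20 were tested, 18 were higher, and 12 of the higher genes and 0 of the lower ones had an unadjusted p under 0.05, against 6.25% and 2.92% of all genes. The median was 0.44, and 0.16 without Ctrl CLH 2. With no filter on low values the list's median was 0.15. *Lgals7*, a galectin of stratified epithelia, had 16.3 and 13.1 in Ctrl and 21.3 and 24.7 in cKO (0.62, SE 0.11), and the value was 0.47 without Ctrl CLH 2. *Sfn*, the 14-3-3 sigma protein of keratinocytes, had 42.8 and 36.8 in Ctrl and 50.6 and 55.7 in cKO (0.41, SE 0.09). *Evpl*, the envoplakin of the cornified envelope, had 7.15 and 5.91 in Ctrl and 9.04 and 9.22 in cKO (0.43, SE 0.11). *Lor*, the loricrin of the epidermal cornified envelope, had 1.08 and 0.418 in Ctrl and 1.33 and 1.407 in cKO, close to the lower limit. Of 34 hair shaft and root sheath genes only 5 were tested. *Krt28* had 1.17 and 0.725 in Ctrl and 1.95 and 1.52 in cKO (0.50), whereas *Krt73* had 6.41 and 9.47 in Ctrl and 3.56 and 6.33 in cKO (-0.61). Without Ctrl CLH 2 the values were 0.19 for *Lor*, 0.33 for *Krt28* and -0.36 for *Krt73*.

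**Figure D3:**
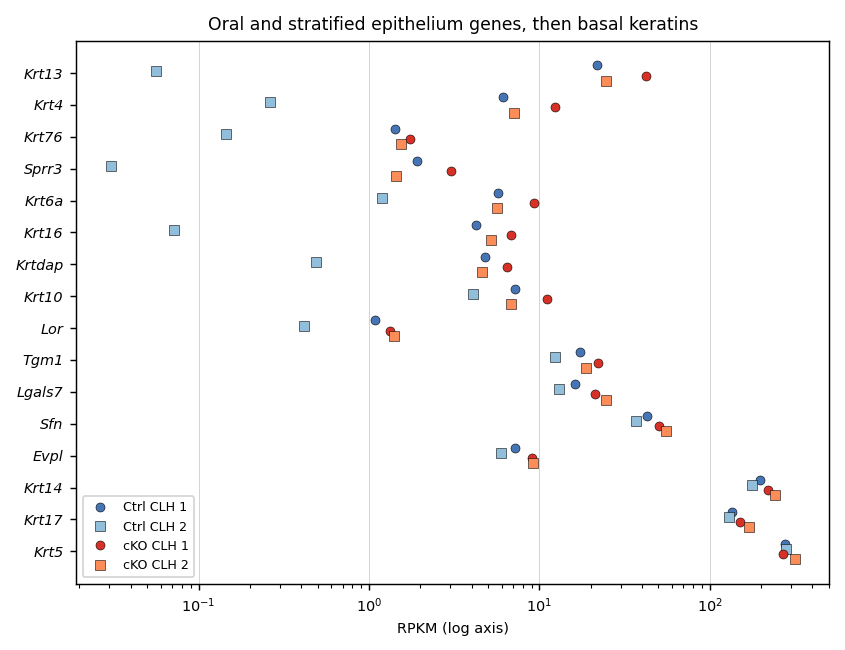
RPKM (log axis) of oral and stratified epithelium genes and of the basal keratins *Krt14*, *Krt17* and *Krt5* in each CLH library, blue for Ctrl and red for cKO, circles for replicate 1 and squares for replicate 2. For *Krt13*, *Krt4* and *Krt16* the Ctrl CLH 2 square lies below 0.3 while the other 3 libraries lie above 4, and for the basal keratins all 4 libraries lie together.

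Secretory enamel genes ranged from the most abundant transcript, *Amelx*, to *Klk4*, a late enamel protease, at 0.886 to 1.65. Of 14 tested, 10 were higher and 4 lower in cKO. Their median was 0.24. At an unadjusted p under 0.05 were 6 higher and 1 lower, against 6.25% and 2.92% of all genes. *Acpt*, an acid phosphatase of ameloblasts, had 46.2 and 35.1 in Ctrl and 70.2 and 55.0 in cKO (0.61, SE 0.13), and 0.42 without Ctrl CLH 2. *Mmp20*, the protease that processes enamel matrix, had 64.6 and 48.7 in Ctrl and 85.3 and 60.3 in cKO (0.35, SE 0.15), and *Enam*, which encodes enamelin, 399.7 and 300.4 in Ctrl and 519 and 363 in cKO (0.32, SE 0.16). The groups overlapped for *Mmp20* and *Enam*, with replicate 1 above replicate 2 in both genotypes. Without Ctrl CLH 2 they stood at 0.15 and 0.12, and without cKO CLH 1 at 0.10 and 0.07. *Fam20c*, the kinase of secreted matrix proteins, had 18.7 and 15.5 in Ctrl and 22.5 and 20.7 in cKO (0.32, SE 0.10, and 0.20 without Ctrl CLH 2). *Amtn*, amelotin of maturation-stage ameloblasts, had 13.8 and 19.3 in Ctrl and 5.48 and 13.2 in cKO (-0.85, SE 0.26). That value was -0.29 without cKO CLH 1. The list's median was 0.12 without Ctrl CLH 2.

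The 12 higher genes named by rule (no overlap, log2 fold change of at least 0.5, smallest limma p) were *Avpi1*, *Ccdc74a*, *Ckb*, *Lgals7*, *Col11a2*, *Col9a3*, *Junb*, *Dpm3*, *Hspg2*, *Atp6v0c*, *Ly6d* and *Fbxl15*. *Avpi1* had 14.4 and 12.9 in Ctrl and 20.6 and 21.4 in cKO (0.58, SE 0.09). *Ccdc74a* had 3.52 and 3.17 in Ctrl and 6.65 and 5.80 in cKO (0.73, SE 0.12). For both genes the distance between the groups was several times that within them, and the values were 0.51 and 0.67 without Ctrl CLH 2. *Ckb*, the brain-type creatine kinase, had 86.3 and 72.7 in Ctrl and 119 and 116 in cKO (0.56, SE 0.09).

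*Col11a2*, which encodes a chain of fibrillar collagen XI, had 66.6 and 48.3 in Ctrl and 96.7 and 86.6 in cKO (0.68, SE 0.12). *Col9a3*, of the collagen that decorates such fibrils, had 58.6 and 44.6 in Ctrl and 84.8 and 74.3 in cKO (0.62, SE 0.12), and *Col9a2* 119 and 106 in Ctrl and 149.7 and 156 in cKO (0.44, SE 0.09). In all 3 genes Ctrl CLH 2 was the lowest library, and without it *Col11a2* stood at 0.45 and *Col9a3* at 0.43. *Hspg2*, the perlecan of basement membranes, had 34.2 and 26.9 in Ctrl and 46.5 and 42.7 in cKO (0.54, SE 0.11). *Col1a1*, the bone and dentin collagen, had 1469 and 1178 in Ctrl and 1865 and 1839 in cKO (0.49, SE 0.14). *Col2a1*, the main collagen of cartilage, was at 0.838 to 1.14 in the 4 libraries. In the odontoblast and bone list 9 of 12 genes were higher, with a median of 0.09. It was 0.04 without Ctrl CLH 2 and 0.03 without cKO CLH 1. An unadjusted p under 0.05 was reached by 2 members, both higher, against 6.25% of all genes. *Sparc*, the abundant matrix glycoprotein osteonectin, had 1190 and 1266 in Ctrl and 1062 and 1195 in cKO. Voom called *Avpi1*, *Ckb*, *Col11a2*, *Col9a3*, *Col9a2*, *Hspg2*, *Lamb3*, *Pkp3*, *Acpt* and *Evpl* among its 26 genes. It also called *Krt13*, *Krt4*, *Krt16* and *1700066N21Rik*, which turned on Ctrl CLH 2. For every voom gene named in this paragraph Ctrl CLH 2 was the lowest library.

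The 12 lower genes named by the same rule were nearly all of low level. They were *2310039L15Rik*, *Gm19710*, *Riiad1*, *Sh3bgr*, *1700048M11Rik*, *Kcnip2*, *1700063D05Rik*, *N4bp2l1*, *2010204K13Rik*, *Aldh1a2*, *Gm10046* and *Gm16861*. *Aldh1a2*, the enzyme that makes retinoic acid, was the most abundant of those described here, with 15.7 and 21.6 in Ctrl and 9.58 and 14.3 in cKO (-0.61, SE 0.16). *Kcnip2*, a potassium channel subunit, had 2.75 and 2.88 in Ctrl and 0.947 and 1.91 in cKO (-0.68, SE 0.17), or 77 and 63 reads against 26 and 46. *Cyp26a1*, the enzyme that degrades retinoic acid, had 64.2 and 81.2 in Ctrl and 51.8 and 63.9 in cKO (-0.32, SE 0.12). Both retinoid enzymes were lower in both cKO libraries, and Ctrl CLH 2 was the highest library for both. *Aldh1a2* and *Cyp26a1* stood at -0.39 and -0.15 without Ctrl CLH 2 and at -0.34 and -0.17 without cKO CLH 1. *Kcnip2* stood at -0.39 without cKO CLH 1.

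Stem cell and niche markers were on balance slightly lower, but as a list the libraries of the genotypes overlapped. Of 16 tested, 4 were higher and 12 lower, the median was -0.10, and 3 had an unadjusted p under 0.05, all lower, beside 2.92% of all genes. *Pcp4*, a calmodulin-binding peptide, had 75.5 and 86.0 in Ctrl and 50.5 and 68.8 in cKO (-0.44, SE 0.12). *Acta2*, smooth muscle actin, had 240.1 and 275 in Ctrl and 169 and 248 in cKO, and *Ncam1* 14.3 and 17.97 in Ctrl and 11.5 and 14.6 in cKO. *Acta2* and *Ncam1* overlapped between the groups, and cKO CLH 1 was the lowest library for all 3 genes. Without it *Pcp4* stood at -0.22, *Acta2* at -0.05 and *Ncam1* at -0.13. The smooth muscle and pericyte list, which shares *Acta2*, summed to 486 and 559 in Ctrl and 374 and 510 in cKO, and its part in these values was not tested. *Lrig1*, a stem cell regulator of epidermal growth factor signalling, had 4.82 and 6.05 in Ctrl and 3.91 and 4.98 in cKO, and *Bmi1*, a polycomb protein needed for self-renewal, 13.5 and 16.5 in Ctrl and 15.7 and 14.2 in cKO. The stem cell list's median lay between -0.14 and -0.08 with any of the 4 libraries left out. Taken by library, as log2(RPKM + 1) minus each gene's mean, the median was highest in Ctrl CLH 2 (0.085). It was lowest in cKO CLH 1 (-0.099). Ctrl CLH 1 (-0.006) and cKO CLH 2 (0.005) lay between these, with cKO CLH 2 above Ctrl CLH 1.

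The signalling pathways of the niche had medians near 0, with single members on either side. In the hedgehog list, the ligand *Shh* had 65.2 and 87.6 in Ctrl and 54.4 and 61.9 in cKO (-0.38, SE 0.12), and -0.16 without Ctrl CLH 2. Its receptor *Ptch1* had 49.3 and 45.0 in Ctrl and 54.6 and 52.0 in cKO (0.18, SE 0.08). *Hhip*, the decoy receptor, had 8.93 and 12.8 in Ctrl and 7.02 and 8.82 in cKO (-0.40, SE 0.15). The ligand and the decoy were thus lower, and the receptor higher, in both cKO libraries. *Hhip* stood at -0.16 and *Ptch1* at 0.11 without Ctrl CLH 2. The 13 genes had a median of 0.03. An unadjusted p under 0.05 was reached by 1 higher and 2 lower members, against 6.25% and 2.92% of all genes.

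In the FGF list, 7 genes were higher and 11 lower, the median was -0.09, and the 3 at an unadjusted p under 0.05 were ligands, all lower, where 2.92% of all genes were called lower. *Fgf10*, the mesenchymal ligand that maintains the cervical loop, had 4.42 and 5.42 in Ctrl and 3.07 and 3.91 in cKO (-0.40, SE 0.13). *Fgf7* had 2.89 and 4.01 in Ctrl and 1.85 and 2.52 in cKO (-0.48, SE 0.15), and *Fgf9*, an epithelial ligand, 1.99 and 2.65 in Ctrl and 1.503 and 1.77 in cKO (-0.33, SE 0.14). Without Ctrl CLH 2 the values of *Fgf10*, *Fgf7* and *Fgf9* were -0.28, -0.30 and -0.19. The FGF list's median was -0.01 without cKO CLH 1. *Fgf3* had 5.67 and 5.52 in Ctrl and 4.32 and 6.15 in cKO and overlapped. The receptor *Fgfr1* had 139 and 129.9 in Ctrl and 153 and 151 in cKO (0.18, SE 0.08), and the target factors *Etv4* and *Etv5* had log2 fold changes of -0.04 and -0.11.

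In the BMP and TGF-beta list, 19 genes were higher and 18 lower, and the median was 0.00. *Smad6* (chromosome 9, 63953076 to 64022059), an inhibitor of BMP signalling that BMP itself induces, had 12.8 and 12.6 in Ctrl and 19.5 and 17.0 in cKO (0.49, SE 0.10, adjusted p = 0.23, limma). The value was 0.48 without Ctrl CLH 2, and voom called the gene. *Smad6* had been named as a marker of CLH, but in Ctrl CLT it had 7.89 and 14.2, on both sides of the Ctrl CLH values. The other BMP targets *Id1* and *Id3* had 92.3 and 91.7, and 238 and 225, in Ctrl and 108 and 111, and 278 and 291, in cKO. Their log2 fold changes were 0.25 (SE 0.08) and 0.30 (SE 0.09). *Id2* and *Smad7*, also induced by the pathway, had log2 fold changes of 0.05 each with overlapping groups. The ligands *Bmp2* and *Bmp4* overlapped as well, and *Bmp5* had 7.53 and 8.18 in Ctrl and 6.20 and 5.62 in cKO (-0.36, SE 0.11).

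In the Wnt list 27 of 42 genes were higher, and the median was 0.04. An unadjusted p under 0.05 was reached by 5 higher and 2 lower members, against 6.25% and 2.92% of all genes. The ligand *Wnt6* had 19.5 and 15.7 in Ctrl and 23.5 and 22.8 in cKO (0.38, SE 0.10), and *Wnt4* and *Wnt10a* stood at 0.27 and 0.31. The co-receptor *Lrp5* had 12.8 and 12.1 in Ctrl and 15.2 and 15.8 in cKO (0.30, SE 0.09). The members lower at such a p were both secreted inhibitors. *Sfrp2* had 576 and 761 in Ctrl and 402 and 581 in cKO (-0.45, SE 0.17, groups overlapping), and *Sostdc1*, which binds both BMP and the Wnt co-receptor, 74.2 and 87.6 in Ctrl and 63.2 and 71.1 in cKO (-0.26, SE 0.10). Without Ctrl CLH 2 the values were 0.23 for *Wnt6*, 0.17 for *Wnt4*, 0.16 for *Wnt10a*, -0.25 for *Sfrp2* and -0.14 for *Sostdc1*, and *Sfrp2* stood at -0.19 without cKO CLH 1. In the Notch list the ligand *Jag2* had 14.2 and 14.0 in Ctrl and 18.3 and 18.4 in cKO (0.36, SE 0.09), and between 0.35 and 0.37 with any library left out. The receptor *Notch1* and the target *Hes1* stood at 0.06 and 0.01, and the 23 Notch genes had a median of 0.02.

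**Figure D4:**
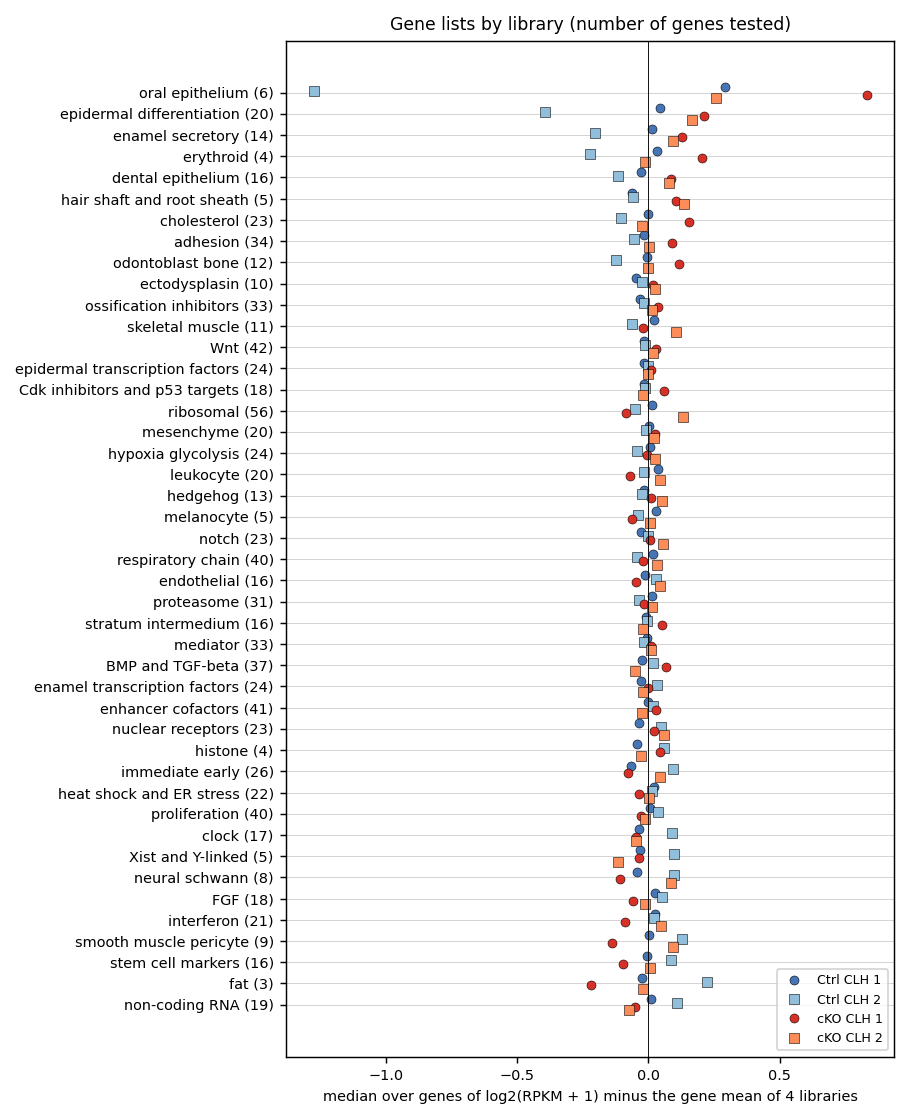
For each gene list, the median over its tested genes (number in brackets) of log2(RPKM + 1) minus the gene's mean of the 4 libraries, by library, with lists ordered by their median fold change. The oral epithelium and epidermal differentiation lists lie farthest from 0, with Ctrl CLH 2 at -1.27 and -0.40, and most other lists lie near 0 in all 4 libraries.

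Over the 45 lists with a tested gene, 29 had a median above 0. Metabolic lists differed little. Of 23 cholesterol synthesis genes 17 were higher, with a median of 0.11 (0.07 without Ctrl CLH 2 and 0.02 without cKO CLH 1). An unadjusted p under 0.05 was reached by 5, all higher, against 6.25% of all genes. Among them was *Mvk*, mevalonate kinase, with 13.9 and 14.7 in Ctrl and 17.5 and 19.3 in cKO (0.34, SE 0.09). Of 56 ribosomal protein genes 36 were higher, with a median of 0.04 that turned to -0.07 without cKO CLH 2. *Rplp1* had 878 and 794 in Ctrl and 1114 and 1266 in cKO (0.51, SE 0.12). Non-coding RNAs lay lower, with 14 of 19 below Ctrl and a median of -0.13 (-0.08 without Ctrl CLH 2). An unadjusted p under 0.05 was reached by 6 lower and 1 higher members, against 2.92% and 6.25% of all genes. *Malat1*, a nuclear RNA of splicing speckles, had 84.7 and 81.7 in Ctrl and 73.0 and 59.0 in cKO (-0.34, SE 0.10, and -0.19 without cKO CLH 2). *Snhg1*, a host of small nucleolar RNAs, had 200.3 and 198 in Ctrl and 168 and 172 in cKO (-0.23, SE 0.08). Strand was not stated for the counts, so values of antisense and overlapping RNAs are uncertain.

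Immediate early and cell cycle arrest genes gave a few separate members. *Junb*, a subunit of AP-1, had 4.12 and 3.26 in Ctrl and 6.17 and 6.38 in cKO (0.64, SE 0.12), and *Jund* 6.602 and 6.15 in Ctrl and 8.12 and 8.63 in cKO (0.35, SE 0.10). In the same list the nuclear receptor *Nr4a1* had 9.52 and 13.7 in Ctrl and 6.80 and 10.5 in cKO (-0.39, groups overlapping), and the list's median was -0.02 over 26 genes. *Cdkn1c*, the Cdk inhibitor p57, had 48.8 and 47.6 in Ctrl and 60.8 and 57.4 in cKO (0.29, SE 0.08), while *Cdkn2c*, the Cdk inhibitor p18, had 24.5 and 24.2 in Ctrl and 20.6 and 21.1 in cKO (-0.21, SE 0.08). *Gadd45b*, a stress-induced growth arrest gene, had 18.2 and 13.5 in Ctrl and 24.9 and 21.3 in cKO (0.53, SE 0.12). *Gadd45b* stood at 0.32 and *Nr4a1* at -0.15 without Ctrl CLH 2. The 18 Cdk inhibitor and p53 target genes had a median of 0.04.

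The narrow differences in CLH were set against CLT by a test of the difference of the cKO effect between the regions (limma interaction, all 8 libraries). Of 13964 genes tested, 1189 had a cKO effect that was more positive in CLT (8.51%) and 1386 one that was more negative in CLT (9.93%) at an adjusted p of 0.05. Of these genes 2295 were among those compared in CLH, and the CLH interval of 2290 lay within 2-fold and of 2063 within 0.5 on the log2 scale. *Dspp*, which encodes the dentin and early ameloblast sialophosphoprotein, had 545 and 423 in Ctrl and 654 and 538 in cKO in CLH, but 543 and 644 in Ctrl and 0.145 and 0.174 in cKO in CLT (log2 difference -9.30, SE 0.23). *Calb1*, a calcium-binding protein of ameloblasts, had 149 to 175 in CLH, and 504 and 614 in Ctrl and 0.162 and 0.0639 in cKO in CLT (-8.84, SE 0.17). *Cav1*, the caveolin of membrane pits, had 13.3 to 16.3 in CLH, and 16.5 and 14.7 in Ctrl and 43.3 and 40.8 in cKO in CLT (1.52, SE 0.16). For these 3 genes the CLT groups were far apart and the CLH groups near each other. The number of such genes depended on the libraries, from 196 without Ctrl CLH 2 to 8996 without Ctrl CLT 1.

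**Figure D5:**
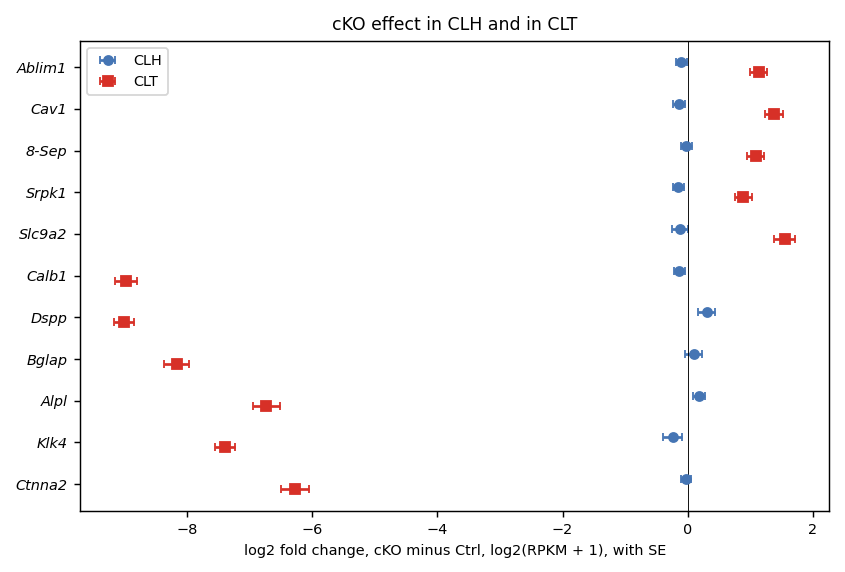
Log2 fold change (cKO minus Ctrl, on log2(RPKM + 1), with SE) in CLH (blue circles) and CLT (red squares) of genes with the smallest interaction p-values in each direction, among those with a log2 difference of at least 1. The 11 CLH values lie between -0.24 and 0.30, while the CLT values lie between 0.89 (*Srpk1*) and 1.55 (*Slc9a2*) or between -9.00 (*Dspp*) and -6.27 (*Ctnna2*).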

How the data were processed

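RNA-seq libraries of CLH and CLT (2 per group) were grouped by their labels. Per the submitters' processing notes and the paper, the authors trimmed reads (Trim Galore 0.4.3.1, FastQC 0.72), aligned them to mm10 (STAR 2.6.0b-1), counted them per gene (featureCounts 1.6.3) and named DESeq2 2.11.40.2. They deposited RPKM for 23358 genes in 8 libraries with gene positions and lengths. The annotation, strand setting and RPKM total are not given in the sources used here. All values (100% within 0.02 reads) were whole multiples of 1 read, so depth was recovered. 0 value columns were left unused. A name on several rows (26 names, 69 rows) was not used by name. Genes of at most 200 bases (147) were left out. P-values measure the spread between libraries of pooled tissues.

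From the RPKM, log2(RPKM + 1) was tested with limma 3.58.1 (lmFit, eBayes with trend, 2-sided) in R 4.3.3 with Benjamini-Hochberg adjustment. Genes described are those of 46 hand-written lists (35 of 1132 entries unmatched, 17 matched by an older symbol), which were not tested as sets, and those named by rule: *Med1* and *Krt14*, the 12 highest in level, the 12 with the smallest p in each direction (no overlap, log2 size of at least 0.5), the 8 of smallest range, the list members with an unadjusted p under 0.05, extremes or high level, and 6 per direction for the interaction. Further members of the lists were named as examples of a role. *Col9a2* and *Col2a1*, which stand in none of the lists, were also named, beside the other collagens. The members and lists were chosen with earlier results of these data known. Results were recomputed with pseudocounts of 0.1 and 0.5, with median-of-ratios or quantile scaling, other filters, no variance trend, robust eBayes, all 8 libraries in 1 fit, a replicate block, voom on recovered reads, and each library left out. Scripts were tested on simulated data. Single genes whose values are not reported here include some that the rule names.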

Additional observations from a re-analysis of the deposited data

Results flagged for a closer look

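The effect of cKO differed between the regions at an adjusted p of 0.05 (limma interaction) for 2575 genes, 1189 more positive and 1386 more negative in CLT. Among the genes named by rule and reported here, the log2 difference (CLT minus CLH) was 1.23 for *Ablim1*, 1.52 for *Cav1*, 1.04 for *Srpk1* and 1.67 for *Slc9a2*. It was 1.11 for the gene that the table lists as 8-Sep, a symbol stored as a date. It was -8.84 for *Calb1*, -9.30 for *Dspp*, -8.26 for *Bglap*, -6.90 for *Alpl*, -7.15 for *Klk4* and -6.24 for *Ctnna2*. The Ctrl CLT libraries differed from each other more than the replicates of the other groups, with 31.5% of genes over 1.5-fold apart. The part of that spread in these counts was not tested.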

How the results depend on the processing

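With no gene past an adjusted p of 0.05 in the limma fit, other settings called few or more. Without the limit on gene length 6 genes passed (3 higher, 3 lower), and voom called 26 (25 and 1). Leaving out 1 library gave 0 to 235 (0 to 173 higher, 0 to 62 lower), with the 235 without Ctrl CLH 1. A fit with a replicate block called 208 (158 higher, 50 lower) in CLH and 1520 (558 more positive, 962 more negative) in the interaction. The study used 2 litters, but the labels do not tie a replicate number to a litter, and the deviations of same-numbered libraries correlated at 0.0570 over 2 pairs, so the block is not read as pairing. With 1 library left out, the lone library of its group is assumed to vary like the others.

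At an unadjusted p under 0.05, all 8 libraries in 1 fit gave 138 genes (104 higher, 34 lower), no filter gave 659 lower, and leaving out 1 library gave 379 to 1455 (257 to 1055 higher, 122 to 727 lower), lowest without Ctrl CLH 2. Genes without overlap numbered 7302 to 9869 (3780 to 4748 higher, 3522 to 5121 lower) with 1 library left out, since fewer values must separate. Intervals within 2-fold numbered 22073 without the filter. Those within 0.5 on the log2 scale numbered 17924 without the filter and 6305 with all 8 libraries. Genes that differed between regions numbered 196 to 8996 (2 to 4039 more positive, 194 to 4957 more negative) with 1 library left out. The cause was not tested. Quantile scaling turned the sign of the stratum intermedium, proteasome and Mediator medians, which lay near 0. Of list medians 655 stayed within the replicate spread and 65 moved. Of gene values 146 passed the threshold, 4874 counted as the same and 19 moved. For genes at an unadjusted p under 0.05 in the limma fit, the same meant that the direction was kept. For other genes it meant a value within the replicate spread, and there the sign could turn. *Amelx* went from 0.05 to -0.04 without cKO CLH 2. Depth limits genes of low RPKM, where 3 reads on 1 kilobase are an RPKM of 0.0872 to 0.112.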
